A study of Mus musculus with 2 samples.

Results

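Cells with transcripts of nonclassical monocytes were chosen among the blood monocytes of mice after an experimental stroke. A cell was taken as a member when the authors had labelled it Monocyte and it held at least 1 raw UMI (unique molecular identifier, the count of 1 captured RNA molecule) of 2 or more different genes out of Ace, Cd300e, Ear2, Adgre4, Eno3, Cd36 and Fabp4. The rule found 215 cells among 1545 monocytes and 5793 cells in all, 112 in the aged and 103 in the young library. After removal of probable doublets, droplets with more than 1 cell, 211 members were left, 109 in the aged and 102 in the young library. They were set against 864 monocytes with none of the 7 genes, of which 573 came from the aged and 291 from the young library. A further 397 monocytes held 1 of the 7 genes. The rule may admit monocytes of other kinds, in particular through Ear2, so the members are not a pure population and their shares are shares of cells that met the rule.

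Monocytes of mouse blood fall into a classical kind, marked by Ly6C and the chemokine receptor CCR2, and a nonclassical kind with little Ly6C and much of the fractalkine receptor CX3CR1. Classical cells enter inflamed tissue, while nonclassical cells crawl along the inside of small vessels and survey the endothelium. Nonclassical monocytes arise largely from classical ones and depend on the nuclear receptor NR4A1 (Nur77).

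Blood was taken from C57BL/6 mice 24 h after their proximal middle cerebral artery had been blocked for a time and reopened (transient MCAo), a stroke model that every animal had undergone. Aged mice were 18 to 24 months old and young mice 2 to 4 months old, and each age was measured in 1 droplet library with the 10x 3′ v2 chemistry. Cells had been sorted for CD11b, an integrin of myeloid cells, as Ly6G+ and Ly6G− fractions, and Ly6G marks neutrophils. How many animals gave each library, whether they were pooled and how the fractions were mixed were not given in the sources used here. With a single library per age there was no replicate, so no p-value was computed, and each statement compares these cells and libraries, not ages. All intervals are at 95% and cover counting error only.

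Depth was alike in members of both libraries. The 109 aged members held 843088 UMIs, with a median of 7293 per cell, and the 102 young members 769988 UMIs, with a median of 7326 per cell (7325.5 before rounding). Monocytes with none of the 7 genes were shallower, at medians of 6174 UMIs in the aged and 6226 UMIs in the young library. Mitochondrial genes gave medians of 2.47% and 2.49% of UMIs in aged and young members, against 2.56% and 2.86% in aged and young cells with none of the genes. The libraries shared 12 cell barcodes, of which 1 belonged to a monocyte in both. Transcripts of red blood cells summed over 6 genes to 180 CPM in aged and 766 CPM in young members (CPM, UMIs per 1000000 UMIs of the same cells), against 163 and 740 CPM in aged and young cells with none of the genes. Red cell transcripts thus differed between the libraries in both classes.

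The 7 choosing genes encode proteins of several roles. Ace encodes angiotensin-converting enzyme (chr11:105967945-105989964, build GRCm38), Cd300e an activating receptor of myeloid cells (chr11:115051917-115062177), and Adgre4 an adhesion G protein-coupled receptor of the EGF-TM7 family (chr17:55749984-55853662). Ear2 encodes an eosinophil-associated ribonuclease (chr14:44102654-44103534) and has near-identical copies in the genome, so reads shared between copies make its counts uncertain. Eno3 encodes muscle enolase (chr11:70657202-70662513), Cd36 a scavenger receptor that takes up fatty acids (chr5:17781690-17888801), and Fabp4 a fatty acid binding protein (chr3:10204088-10208576).

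Values of these 7 genes selected the members and are given as a description alone. Ear2 was found in 90.8% of aged and 86.3% of young members, Adgre4 in 63.3% and 71.6%, and Ace in 46.8% and 61.8%. Cd300e was found in 20.2% of aged and 31.4% of young members, Eno3 in 25.7% and 33.3%, Cd36 in 16.5% and 35.3%, and Fabp4 in 19.3% and 26.5%. Ear2 was the commonest, with a UMI in 30.8% of all aged and 35% of all young monocytes. The commonest pair was Ear2 with Adgre4 and no other gene, in 27 aged and 15 young members. Just inside the threshold stood 57 aged and 38 young cells with 2 of the genes. Just outside it stood 250 aged and 147 young cells with 1, and in 188 of those aged and 101 of those young cells that gene was Ear2.

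Members of the aged library held fewer of the choosing genes than members of the young library. At least 4 of the 7 were detected in 24 of 109 aged members (22%, exact binomial interval 14.6% to 31%) and in 46 of 102 young members (45.1%, 35.2% to 55.3%). Exactly 5 were detected in 0 aged and 22 young cells. Median depth was alike over all members, as given above. It was also alike in members with 4 or more genes, at 7742 UMIs in the aged and 7891 UMIs in the young library. Depth differed in a cluster of monocytes that held 12 of these 24 aged and 40 of these 46 young members. There, aged members had a median of 2387 UMIs (2386.5 before rounding) and young members 6665 UMIs. The part of depth in these counts was not tested.

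**Figure D1:**
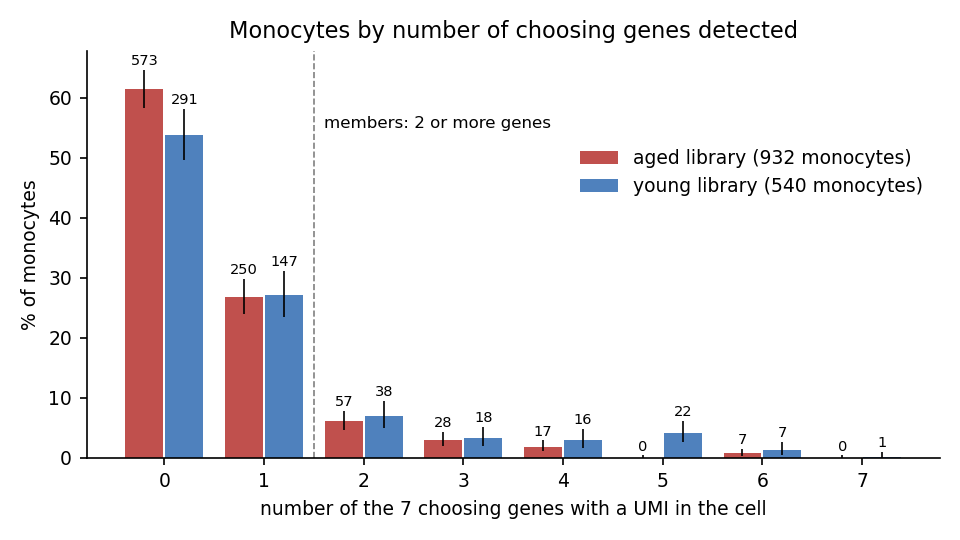
Share of monocytes (vertical axis, % of the monocytes of each library) by how many of the 7 choosing genes had a UMI in the cell (horizontal axis), with aged bars left of young bars, cell numbers above them and exact binomial 95% intervals. Cells right of the dashed line are the members, and those with 5 genes numbered 0 in the aged and 22 in the young library.

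Members made up 11.7% of aged monocytes (109 of 932, exact binomial interval 9.7% to 13.9%) and 18.9% of young monocytes (102 of 540, 15.7% to 22.4%). The intervals did not overlap. When each cell was thinned at random to 1000 UMIs, 22 aged cells (2.36%, 1.49% to 3.55%) and 28 young cells (5.19%, 3.47% to 7.41%) still met the rule, so most members were recognised only at their full depth and these intervals overlapped slightly. Outside the monocytes the rule was met by 5 of 104 aged and 1 of 52 young conventional dendritic cells, by 0 of 2628 aged and 2 of 1133 young neutrophils, by 0 of 58 aged and 0 of 70 young NK cells, and by 5 of 41 aged and 0 of 14 young B cells. After thinning it was met by none of these cells. The sort, the unknown mixing of its fractions and the authors' choice of cells can set such shares, and their part in the difference was not tested.

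The label was checked against markers that had no part in the choice. All 9 such markers of nonclassical monocytes were at least 2-fold higher in members than in cells with none of the 7 genes, in both libraries. Across all 7057 genes measured, 2.22% were at least 2-fold higher in both libraries and 0.595% at least 2-fold lower in both. Summed over the 9 markers, members held 1407 CPM in the aged and 1886 CPM in the young library, against 437 and 413 CPM in aged and young cells with none of the genes. The sum was not low in other cell types. In the aged and young libraries it was 1050 and 800 CPM in neutrophils and 710 and 889 CPM in NK cells. B cells held 696 and 820 CPM and conventional dendritic cells 625 and 720 CPM. Cd9 alone had 731 and 343 CPM in neutrophils, against 120 and 62.3 CPM in members.

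Cx3cr1, which encodes the fractalkine receptor, had 126 CPM in aged and 247 CPM in young members, against 17.8 CPM in aged and 46.5 CPM in young cells with none of the genes. That is a ratio of 7.06 (5.15 to 9.74) in the aged and 5.31 (4.08 to 6.96) in the young library. Nr4a1, the nuclear receptor on which these cells depend, had 176 and 309 CPM in aged and young members, against 43.8 and 63.5 CPM in aged and young cells with none of the genes. Its ratios were 4.00 (3.19 to 5.03) in the aged and 4.87 (3.87 to 6.15) in the young library. Both defining transcripts were thus higher in members, and both stood lower in aged than in young members.

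Treml4, a receptor of the TREM family, had 84.2 and 129 CPM in aged and young members, against 15.1 and 15.3 CPM in aged and young cells with none of the genes. Spn, which encodes the sialoglycoprotein CD43, had ratios of 4.65 (3.05 to 7.10) in the aged and 5.56 (3.53 to 8.98) in the young library. Itgal, the alpha chain of the integrin LFA-1, had ratios of 3.34 and 3.62 in the aged and young libraries. Pou2f2, the transcription factor OCT2, had 2.75 and 4.18, Fcgr4, an Fc receptor for IgG, had 2.46 and 4.05, and Cd9, a tetraspanin, had 3.03 and 3.93. Itgax, which encodes CD11c, had the highest ratios of the 9, at 14.7 (6.09 to 40.5) in the aged and 10.6 (4.86 to 26.3) in the young library, though it rested on 23 UMIs in aged and 37 UMIs in young members.

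Free RNA gives a low share of cells a UMI of any gene, so shares were compared at 1000 UMIs per cell with those in NK and B cells, which had median depths of 2654 UMIs in the aged and 2078 UMIs (2077.5 before rounding) in the young library. Treml4 was found in 8.26% of aged and 10.8% of young members, against 1.57% of aged and 1.03% of young cells with none of the genes, and in 0 of 99 aged and 1.19% of 84 young NK and B cells. Without thinning, Treml4 was found in 43.1% of aged and 52.9% of young members, against 8.73% and 8.93% of aged and young cells with none of the genes. For Treml4 the members thus lay above NK and B cells, and cells with none of the genes near them. Members also lay above NK and B cells in both libraries for Cx3cr1, Nr4a1, Itgal, Fcgr4 and Pou2f2. The intervals overlapped for Itgal in both libraries, for Cx3cr1 in the aged and for Treml4 in the young library. Cx3cr1 was found in 12.8% of aged and 26.5% of young members, against 0.698% of aged and 5.15% of young cells with none of the genes, and in 4.04% of aged and 1.19% of young NK and B cells. Its unthinned shares of members were 48.6% and 67.6% in the aged and young libraries. For Spn, Cd9 and Itgax the members lay below NK and B cells, with intervals that overlapped in both libraries. Spn was found in 8.26% of aged and 10.8% of young members, against 15.2% of aged and 21.4% of young NK and B cells, Cd9 in 18.3% and 9.8% of members, against 21.2% and 11.9% of NK and B cells, and Itgax in 1.83% and 7.84%, against 3.03% and 8.33%. NK and B cells transcribe some of these genes themselves, so they set no free RNA level for them: B cells held 311 and 447 CPM of Pou2f2 in the aged and young libraries, against 1.46 and 3.95 CPM in aged and young neutrophils.

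Classical markers were reduced less evenly. Of 9 measured, only Ly6c2, which encodes the Ly6C2 surface antigen, was at least 2-fold lower in members in both libraries. Ly6c2 had 470 CPM in aged and 279 CPM in young members, against 1203 CPM in aged and 1098 CPM in young cells with none of the genes, ratios of 0.390 (0.351 to 0.433) and 0.254 (0.220 to 0.293). F13a1, a coagulation factor subunit typical of classical monocytes, had ratios of 0.548 and 0.484 in the aged and young libraries. Ccr2 stayed close to the other monocytes, at 868 and 875 CPM in aged and young members, against 960 and 1063 CPM in aged and young cells with none of the genes. Summed over the 9 classical markers, members held 6378 CPM in the aged and 6207 CPM in the young library, against 10024 and 10185 CPM in aged and young cells with none of the genes.

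The markers moved with the number of choosing genes, and cells with 1 gene stood close to those with none. The 9 nonclassical markers summed to 437 and 413 CPM in aged and young cells with none of the genes and to 517 and 510 CPM in those with 1. They summed to 1025 and 1016 CPM in aged and young members with 2 genes, 1484 and 1556 CPM in those with 3, and 2183 and 2624 CPM in those with 4 or more. Ly6c2 had 671 and 426 CPM in aged and young members with 2 genes, 257 and 224 CPM in those with 3, and 266 and 199 CPM in those with 4 or more. A deeper cell shows more of any 7 genes, and the medians for 2, 3 and 4 or more were 7246, 8190 (8189.5 before rounding) and 7742 UMIs in aged and 6810 (6809.5 before rounding), 7591 and 7891 UMIs in young members. CPM is a share of UMIs, but depth affects which cells reach each number of genes. The part of depth in these marker values was not tested.

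**Figure D2:**
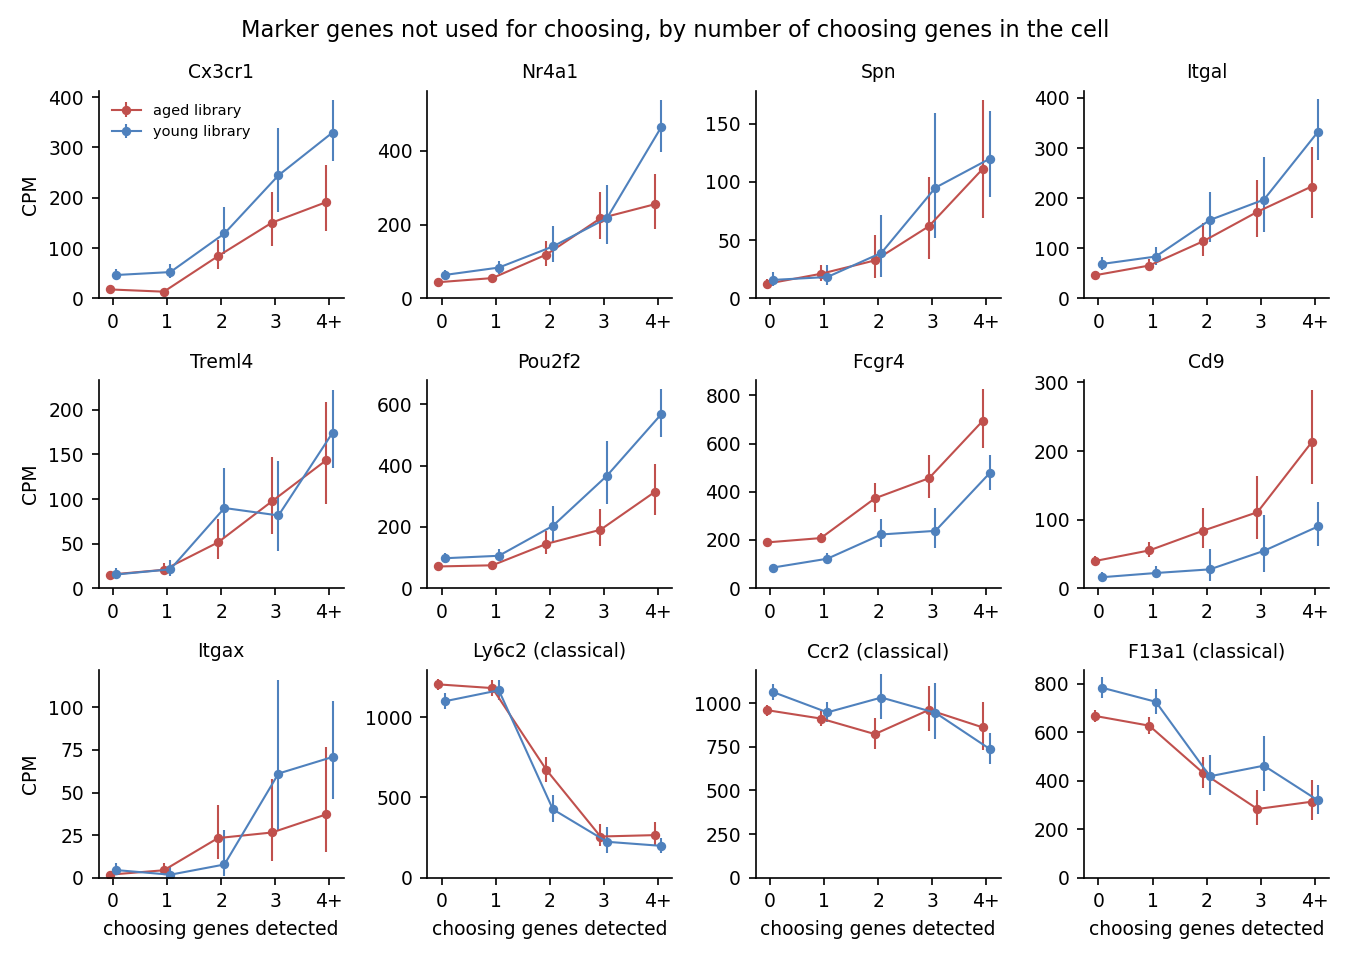
CPM (vertical axes, each from 0) of 9 nonclassical and 3 classical markers that did not choose the members, by number of choosing genes detected in the cell (horizontal axes), in the aged and young libraries, with exact Poisson 95% intervals. The 9 nonclassical markers are each highest at 4 or more genes in both libraries, Ly6c2 is lower in members than at 0 or 1 gene, and Ccr2 lies between 738 and 1063 CPM throughout.

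Markers of other cell types in the blood were looked for in the members. Neutrophil markers summed to 22453 CPM in aged and 14039 CPM in young members, against 34425 and 22900 CPM (22899.5 before rounding) in aged and young cells with none of the genes, and to 421363 and 333346 CPM in aged and young neutrophils. Most of the sum in members was S100a8, at 14211 and 8183 CPM, and S100a9, at 6226 and 4013 CPM, in the aged and young libraries. The dendritic cell genes Zbtb46, Clec9a and Xcr1 were at 0 in members of both libraries, and Flt3 was at 2.37 CPM in aged and 9.09 CPM in young members, against 7.71 and 12.5 CPM in aged and young cells with none of the genes. Cd209a was at 5.93 and 3.90 CPM in aged and young members, against 2.13 and 1.70 CPM in aged and young cells with none of the genes. The zeros carry little weight, since cells labelled conventional dendritic held 2, 12 and 1 UMIs of Zbtb46, Clec9a and Xcr1 in the aged library and 0 of each in the young library. Of 4 measured dendritic cell markers, 3 were at least 2-fold higher in members, and all 3 were MHC class II genes. B cell markers summed to 35.6 and 18.2 CPM in aged and young members, against 10.9 and 11.9 CPM in aged and young cells with none of the genes. In aged members with 4 or more choosing genes they summed to 117 CPM, and these cells held all 8 UMIs of Cd79a and all 4 of Ms4a1 found in aged members. NK cell markers summed to 19.0 and 31.2 CPM in aged and young members, against 11.2 and 40.2 CPM in aged and young cells with none of the genes, and T cell markers to 1.19 and 5.19 CPM, against 2.92 and 2.27 CPM. Ncr1, Prf1 and Cd3e were at 0 in members of both libraries. The part of other cell types in the class II values was not tested.

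Members were next compared with cells with none of the 7 genes across all genes. Among the 7057 genes that reached 50 UMIs, 157 passed 2-fold upward and 42 downward in both libraries, while the median log2 ratio over all genes was 0.05 in the aged and 0.07 in the young library. The 15 that ranked highest included Bcl2a1b, Dusp16, S1pr5, Itgax, Pltp and H2-Aa, and the 15 that ranked lowest included Spp1, Ly6c2, Dmkn and cell cycle genes. As the cells were chosen on transcripts of the same cells, these values describe the members and are not a test.

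Dusp16, a phosphatase that inactivates JNK and p38 kinases, had 64.1 CPM in aged and 77.9 CPM in young members, against 7.17 and 2.83 CPM in aged and young cells with none of the genes. Its ratios were 8.93 (5.53 to 14.7) in the aged and 27.5 (11.1 to 87.7) in the young library. S1pr5, a receptor for sphingosine 1-phosphate that serves the exit of these monocytes from bone marrow, had 21 and 29 UMIs in aged and young members, against 3 and 5 UMIs in aged and young cells with none of the genes, ratios of 31.2 (9.33 to 164) and 13.3 (5.09 to 44.0). Few transcripts of either gene were found in monocytes with none of the choosing genes. Adrbk2, a G protein-coupled receptor kinase, had ratios of 8.04 in the aged and 7.28 in the young library, Stap1, a signalling adaptor, 6.38 and 6.06, and Pltp, the phospholipid transfer protein, 7.65 and 13. Hes1, a target of Notch signalling, had 73.5 and 151 CPM in aged and young members, against 15.4 and 21.5 CPM in aged and young cells with none of the genes.

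Among the lowest, Spp1, which encodes osteopontin, had 24.9 CPM in aged and 1.30 CPM in young members, against 170 and 43.1 CPM in aged and young cells with none of the genes. In young members this was 1 UMI, and the ratios were 0.147 (0.0902 to 0.226) in the aged and 0.0301 (7.53e-04 to 0.173) in the young library. Dmkn, which encodes the secreted protein dermokine, had ratios of 0.375 and 0.234 in the aged and young libraries, and Il1r2, the decoy receptor for interleukin-1, 0.410 and 0.409. The matrix metalloproteinase Mmp19 had 0.416 and 0.211, and the serine protease inhibitor Serpinb1a 0.496 and 0.382. Cell cycle transcripts were among the lowest too, with Ccnb2 (cyclin B2) at 0.373 and 0.127 and Stmn1 (stathmin) at 0.40 and 0.143, while Birc5 (survivin) had 18 and 0 UMIs in aged and young members, against 168 and 16 UMIs in aged and young cells with none of the genes. C1rl, Hmgn2, Glipr2, Nt5dc2, Tarm1 and Cdkn3 completed the lowest 15, and C1rl, a complement-like protease gene, had 0.307 and 0.327. Cells with a UMI of Mki67, Top2a or Cdk1 did not differ in 1 direction, at 4.59% of aged and 3.92% of young members, against 5.58% of aged and 3.09% of young cells with none of the genes.

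**Figure D3:**
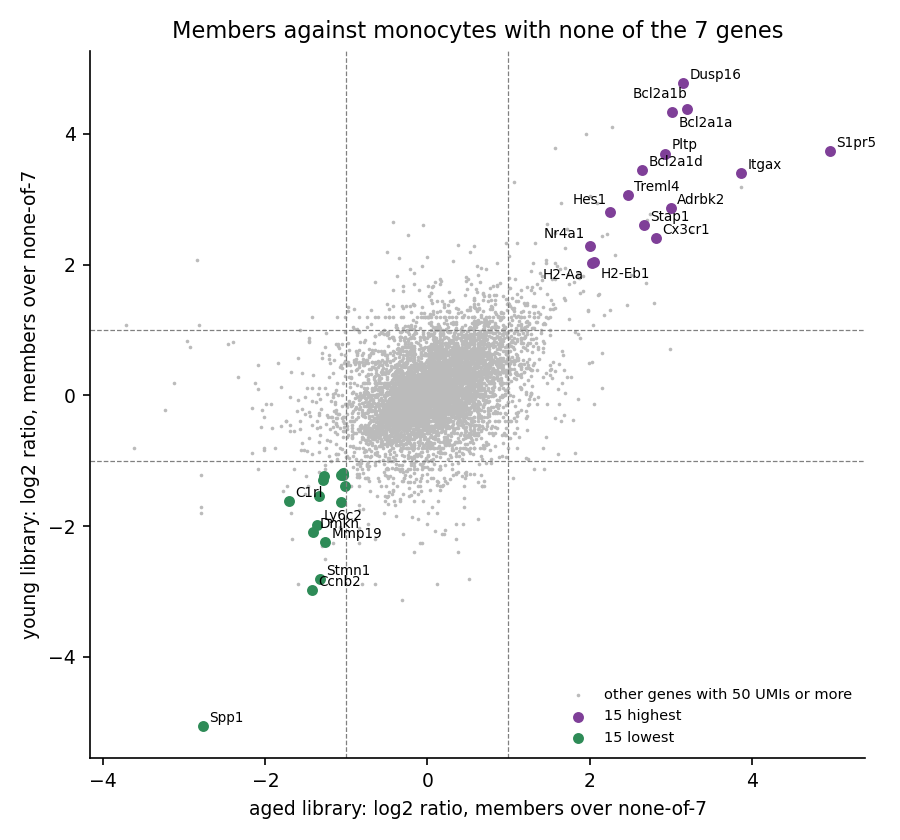
Log2 ratio of CPM in members over cells with none of the 7 genes, in the aged library (horizontal axis) and the young library (vertical axis), 1 point per gene. The 15 genes ranked highest lie past 2-fold in both libraries (dashed lines) and the 15 ranked lowest, 7 of them named, past 2-fold in the other direction, with Spp1 lowest of the 15. A gene with 0 UMIs in a class is drawn as if it had 3.

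Transcription factors of nonclassical monocytes were higher in 6 of 22 measured members of their list and lower in 0. The 6 were Nr4a1, Pou2f2, Bcl6, Tcf7l2, Relb and Hes1. Over all genes, 2.22% were higher and 0.595% lower in both libraries. The list's median log2 ratio was 0.60 in the aged and 0.58 in the young library, against 0.05 and 0.07 over all genes. Tcf7l2, an effector of Wnt signalling, had 51.0 and 61.0 CPM in aged and young members, against 16.2 and 7.94 CPM in aged and young cells with none of the genes. Cebpb, which encodes a factor needed for these cells to form and survive, was abundant throughout and had ratios of 1.33 (1.26 to 1.40) in the aged and 1.44 (1.36 to 1.53) in the young library. Klf4 had 1.72 and 1.73. In the list of factors of classical monocytes and progenitors, 1 of 9, Runx2, was higher and 0 were lower.

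Adhesion and patrolling genes had median log2 ratios of 0.50 in the aged and 1.03 in the young library. Against 2.22% of all genes, 7 of 18 measured were higher. These were Cx3cr1, Itgal, Itgax, Spn, S1pr5 and Cd9, already described, and Itga4, the alpha chain of the integrin VLA-4, at 181 and 260 CPM in aged and young members, against 90.3 and 98.6 CPM in aged and young cells with none of the genes. Among receptors for chemoattractants, 0 of 14 were past 2-fold in either direction in both libraries. Fc receptors were higher in 2 of 13, Fcgr4 and the neonatal Fc receptor Fcgrt.

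Genes of cell survival were higher in 6 of 17 measured, against 2.22% of all genes. Both pro- and anti-survival members were among the 6. Bcl2a1b, an anti-apoptotic BCL2 relative, had 90.1 and 94.8 CPM in aged and young members, against 9.83 and 4.54 CPM in aged and young cells with none of the genes. Bcl2a1a and Bcl2a1d followed, and since the 3 are near-identical copies the share of reads each received is uncertain. Bcl2 itself had ratios of 2.98 (1.48 to 5.84) in the aged and 13.7 (5.28 to 45.4) in the young library. The pro-apoptotic Bbc3 (PUMA) had 2.09 and 9.62, and Pmaip1 (NOXA) 4.99 and 4.43.

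Lipid handling genes other than the choosing genes were higher in 3 of 17, against 2.22% of all genes. The 3 were the cholesterol exporter Abcg1, lipoprotein lipase Lpl and Pltp. Lpl rested on 4 UMIs in aged and 24 UMIs in young members. Apoe, which encodes apolipoprotein E, reached 5641 CPM in aged and 6129 CPM in young members, against 3259 and 2447 CPM in aged and young cells with none of the genes, ratios of 1.73 (1.67 to 1.79) and 2.50 (2.40 to 2.61). In the list for uptake of dead cells and complement, 3 of 13 were higher, the transglutaminase Tgm2, the integrin chain Itgav and Havcr2 (TIM-3). C1qa, C1qb and C1qc, the chains of complement C1q, did not reach 2-fold in both libraries, and C1qb had ratios of 0.792 in the aged and 1.86 in the young library.

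Lists on the other side had low medians with few genes past 2-fold. Of all genes, 0.595% were at least 2-fold lower in both libraries. S100 alarmins and antimicrobial genes had median log2 ratios of -0.57 in the aged and -0.59 in the young library with 0 of 14 past 2-fold in both. S100a8, a calprotectin subunit, had 14211 CPM in aged and 8183 CPM in young members, against 23145 and 15792 CPM in aged and young cells with none of the genes, and S100a8 is abundant in neutrophils too. Glycolysis genes had medians of -0.31 and -0.46 (0 of 20), matrix and coagulation genes -0.40 and -0.55 (Spp1 and Mmp19 lower of 16), and cell cycle genes -0.45 and -0.61 (3 of 13 lower). Interferon-stimulated genes, lysosomal genes, the NADPH oxidase and actin regulators had medians between -0.09 and 0.12 with 0 past 2-fold in both libraries.

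MHC class II genes, which present antigen to T helper cells, had the highest median of the 23 lists. It was a log2 ratio of 1.16 in the aged and 1.61 in the young library. Higher were 5 of 9 measured, against 2.22% of all genes. H2-Aa, the alpha chain of I-A, had 1508 CPM in aged and 729 CPM in young members, against 368 and 179 CPM in aged and young cells with none of the genes, a ratio of 4.10 (3.80 to 4.43) and 4.08 (3.55 to 4.70). H2-Ab1 (I-A beta), H2-Eb1 (I-E beta) and the invariant chain gene Cd74 moved with it, at ratios of 3.79, 4.17 and 3.64 in the aged and 3.53, 4.13 and 3.48 in the young library. The direction turned when the rule was applied at 1000 UMIs per cell, to log2 ratios of -0.88 and -2.83 for H2-Aa and -0.14 and -0.45 for H2-Eb1 in the aged and young libraries. Promoters of class II genes hold a short conserved element, the Y box, bound by the factor NF-Y. It was looked for as CTGATTGG on both strands in the RefSeq promoters of build GRCm38.p6, from 250 bases before to 50 after each start site. It was in 4.1% of 32851 promoters of all genes, and in those of H2-Aa and H2-Eb1 among 6 promoters of the 5 class II genes that matched the table by symbol. The 150 bases up to 50 after the start site are shown for these genes because their transcripts moved together, with the Y box in capitals, 51 bases before the start of H2-Aa (chr17:34287774-34287923, minus strand) and 62 bases before that of H2-Eb1 (chr17:34305767-34305916, plus strand):
H2-Aa: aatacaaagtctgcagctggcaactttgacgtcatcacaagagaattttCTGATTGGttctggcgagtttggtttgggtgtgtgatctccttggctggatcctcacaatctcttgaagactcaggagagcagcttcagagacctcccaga
H2-Eb1: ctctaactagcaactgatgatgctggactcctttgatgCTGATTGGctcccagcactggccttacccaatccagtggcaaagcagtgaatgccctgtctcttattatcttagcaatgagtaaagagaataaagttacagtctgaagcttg
A match is a string of letters and not a measured binding site. The response element of NR4A1, AAAGGTCA, was in 0 of 7 promoters of the 6 choosing genes that matched and in 1.51% of all promoters, which says only that these letters are not in those windows. It was in 1 of 12 matched promoters of the 15 genes ranked highest, that of H2-Eb1. It was also in 1 of 17 matched promoters of the 15 ranked lowest, that of C1rl.

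Class II transcripts came from a minority of the members. The 4 genes H2-Aa, H2-Ab1, H2-Eb1 and Cd74 gave a median of 0.0636% of UMIs per aged and 0.0377% per young member, with upper quartiles of 0.705% and 0.306%, against medians of 0.0113% and 0.0107% in aged and young cells with none of the genes. Over 0.5% of UMIs came from these genes in 32 of 109 aged (29.4%, 21% to 38.8%) and 16 of 102 young members (15.7%, 9.24% to 24.2%), against 46 of 573 aged (8.03%) and 12 of 291 young cells (4.12%) with none of the genes. Cells labelled conventional dendritic had medians of 2.24% and 2.55% in the aged and young libraries. Most members thus held few class II transcripts and a fraction held many.

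How the members lay among all monocytes was examined by clustering the monocytes of both libraries without the 7 choosing genes. Of 9 clusters, number 8, of 100 cells, was led by Cd300e, Cd36, Eno3, Ace, Dusp16 and Bcl2a1b when its genes were ranked afterwards. It was singled out because the share of members among its aged cells was the highest of the 9 clusters. A high aged share was thus fixed by that choice. The cluster held members as 28 of its 34 aged cells (82.4%, 65.5% to 93.2%) and 54 of its 66 young cells (81.8%, 70.4% to 90.2%). It held 25.7% of aged and 52.9% of young members. Among members with 4 or more choosing genes it held 12 of 24 aged and 40 of 46 young cells, and among members with 2 genes 9 of 57 aged and 9 of 38 young cells. In all monocytes cluster 8 made up 3.65% of the aged (2.54% to 5.06%) and 12.2% of the young library (9.58% to 15.3%). Cd300e, Cd36, Eno3 and Ace had no part in the clustering but chose the members. Other leading genes were open to the clustering, so none of the leading genes is separate evidence.

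The remaining members were spread over other clusters, in part by library. Cluster 5, led by H2-Aa, H2-Eb1 and Cd74, held 34 aged and 24 young members. Cluster 1, led by Ecm1, C1qb and C1qc, held 35 aged and 2 young members and was itself nearly all aged, at 246 of 251 cells. Cluster 3, led by hemoglobin genes, held 0 aged and 18 young members and was nearly all young, at 214 of 219 cells. The libraries were clustered together without integration, so a cluster of 1 library and a kind of cell found in 1 library cannot be told apart. At the lower resolution of 0.5 the class II and Cd300e cells merged into 1 cluster of 241 cells, which held 61 aged and 63 young members.

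**Figure D4:**
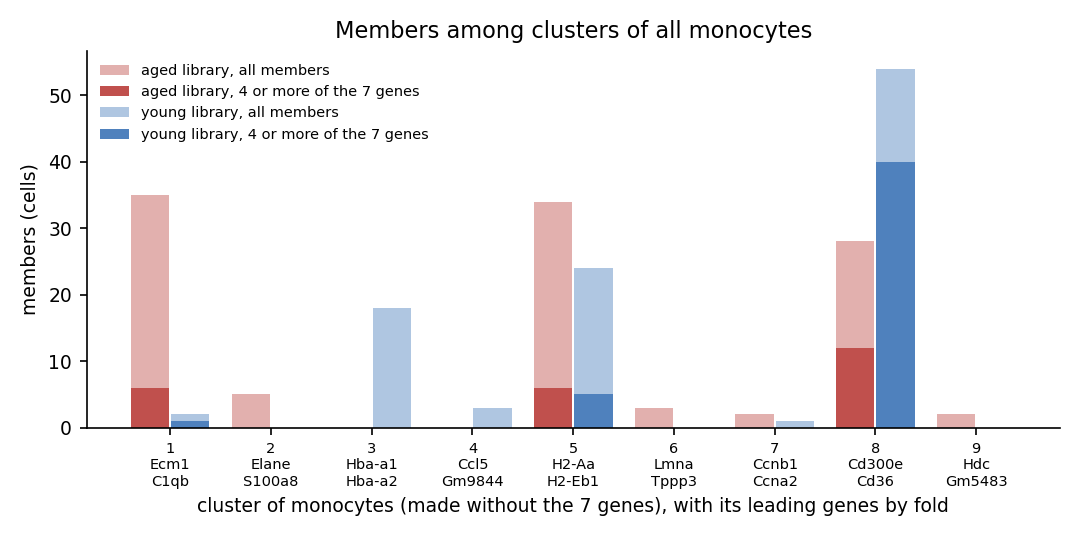
Number of members (vertical axis) in each of 9 clusters of all monocytes (horizontal axis, with the 2 leading genes of each), in the aged library (left bars) and the young library (right bars), with the members holding 4 or more choosing genes in full colour. Cluster 8 held 28 aged and 54 young members, cluster 5 held 34 and 24, and cluster 1 held 35 and 2.

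Members inside and outside cluster 8 differed in nonclassical markers and class II genes. The clusters were built from transcripts of the same cells, and class II genes led cluster 5, so these values are a description and not a test. Inside it, the 9 nonclassical markers summed to 3339 CPM in aged and 2582 CPM in young members, against 1151 and 1230 CPM in aged and young members outside it. H2-Aa stood at 152 and 225 CPM inside, against 1687 and 1203 CPM outside, in the aged and young libraries. Over 0.5% of UMIs came from class II genes in 1 of 28 aged and 1 of 54 young members inside. Over cells with none of the genes, members in cluster 8 had H2-Aa ratios of 0.414 (0.231 to 0.685) in the aged and 1.26 (0.978 to 1.61) in the young library. Aged members inside the cluster were few and shallow, with 98529 UMIs in 28 cells and a median of 2387 UMIs (2386.5 before rounding), against 373335 UMIs in 54 young cells and a median of 6665 UMIs.

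Aged members were then set against young members, gene by gene. Among 3423 genes that reached 50 UMIs in members, 216 (6.31%) passed 1.5-fold upward and 288 (8.41%) downward in aged members, with a median log2 ratio of 0.04. Class II genes, S100a8, S100a9 and Cd33 were higher in aged members, and Cx3cr1, Nr4a1 and Pou2f2 were lower. Of the genes at least 1.5-fold higher, 58 were so in aged cells with none of the 7 genes as well, and of those lower, 110 were. At least 1.5-fold in the opposite direction were 0 of the higher and 4 of the lower genes. The share of all genes past 1.5-fold in cells with none of the 7 genes is not given here, so these counts show no excess or lack of overlap.

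Cd33, which encodes a sialic acid-binding receptor, was higher in aged members but not in aged cells with none of the 7 genes. It had 147 CPM in aged and 51.9 CPM in young members, a ratio of 2.83 (1.97 to 4.15). In cells with none of the 7 genes it had 91.9 CPM in the aged and 101 CPM in the young library, a ratio of 0.906. The ratio in members over that in cells with none of the genes was 3.13 (2.1 to 4.66). Cells with 1 of the genes lay between, at 112 CPM in the aged and 79.8 CPM in the young library. Cd33 was higher in aged members both inside cluster 8, at 4.03 (1.91 to 8.51), and outside it, at 2.38 (1.51 to 3.87).

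Several other genes were higher both in aged members and in aged cells with none of the 7 genes. Dmkn had 98.4 CPM in aged and 11.7 CPM in young members, a ratio of 8.42 (4.23 to 19.1), against 5.26 in cells with none of the genes. Il1r2 had 164 and 49.4 CPM, a ratio of 3.32 (2.30 to 4.88), against 3.31 in cells with none of the genes. Ifitm1, an interferon-induced membrane protein, had 2.15 in members and 2.01 in the other cells, and Thbs1, which encodes thrombospondin 1, had 2.60 and 1.82. The class II genes H2-Eb1, H2-Ab1, Cd74 and H2-Aa had ratios of 2.47, 2.24, 2.08 and 2.07 in members and of 2.45, 2.09, 1.99 and 2.06 in cells with none of the genes. Inside cluster 8 the ratio of H2-Ab1 was 0.640 (0.326 to 1.16) and that of H2-Aa 0.677 (0.363 to 1.18). Outside it H2-Ab1 had 1570 CPM in aged and 1019 CPM in young members, and H2-Aa 1687 and 1203 CPM. The part of the unlike shares of members in cluster 8 in the ratios over all members was not tested.

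Genes lower in aged members fell into those shared with other monocytes and those less so. Wdr89, a WD repeat gene, had 454 CPM in aged and 1526 CPM in young members, a ratio of 0.298 (0.265 to 0.334), and 0.290 in cells with none of the genes. Polr2l, a subunit of RNA polymerase II, had 0.374 and 0.404. Pou2f2 had 195 CPM in aged and 408 CPM in young members, a ratio of 0.477 (0.392 to 0.578), against 0.725 in cells with none of the genes, and the ratio of these ratios was 0.658 (0.503 to 0.861). Batf3, a factor of the AP-1 family, had 33.2 and 83.1 CPM in aged and young members, a ratio of 0.40 (0.247 to 0.632), against 0.974 in cells with none of the genes. Lfng, which modifies Notch receptors, had 0.427 (0.279 to 0.642) against 0.962, and Sh3bp1 0.404 (0.256 to 0.626) against 0.890. Nfkbiz, which encodes an atypical NF-kappaB inhibitor, had 0.354 (0.211 to 0.575) against 0.637. Larp1, Fam107b and Adrbk2 completed the lowest 10, at 0.312, 0.419 and 0.457.

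Transcription factors of nonclassical monocytes were lower in aged members in 6 of 18 measured (Nr4a1, Klf4, Pou2f2, Hes1, Notch2 and Batf3) and higher in 0, with a median log2 ratio of -0.21 in members and -0.18 in cells with none of the genes. Adhesion and patrolling genes were lower in 5 of 15 (Cx3cr1, Itgal, Itgax, Spn and S1pr5) and higher in 2, Cd9 among them. Cx3cr1 had a ratio of 0.510 (0.398 to 0.650) in members and 0.383 (0.273 to 0.535) in cells with none of the genes. Nr4a1 had 0.568 (0.459 to 0.700) and 0.690 (0.540 to 0.886). Survival genes were lower in 2 of 13, the near-identical copies Bcl2a1a and Bcl2a1d. Among all genes measured in members, 6.31% were at least 1.5-fold higher and 8.41% at least 1.5-fold lower. The 2 of 13 survival genes are not read as an excess over that share.

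The make-up of the members differed between the libraries too. Members in cluster 8 were 25.7% of the aged and 52.9% of the young members, and inside that cluster Cx3cr1 stood at a ratio of 0.982 (0.624 to 1.5), Nr4a1 at 0.907 (0.622 to 1.29), Itgal at 0.932 (0.608 to 1.39) and Pou2f2 at 0.727 (0.512 to 1.01). Among members outside it, Cx3cr1 stood at 0.507 (0.367 to 0.700) and Nr4a1 at 0.774 (0.572 to 1.05). Fcgr4 and Cd9, which mark nonclassical cells too, went the other way, at 1.35 (1.15 to 1.58) and 1.92 (1.35 to 2.77) in all members and at 2.31 (1.79 to 2.98) and 4.76 (2.99 to 7.65) inside cluster 8. In cells with none of the genes Fcgr4 had 190 CPM in the aged and 85.6 CPM in the young library. Cd9 had 39.6 and 15.9 CPM there, so both were higher in aged cells outside the members too. How far the mixture sets the values over all members was not tested.

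**Figure D5:**
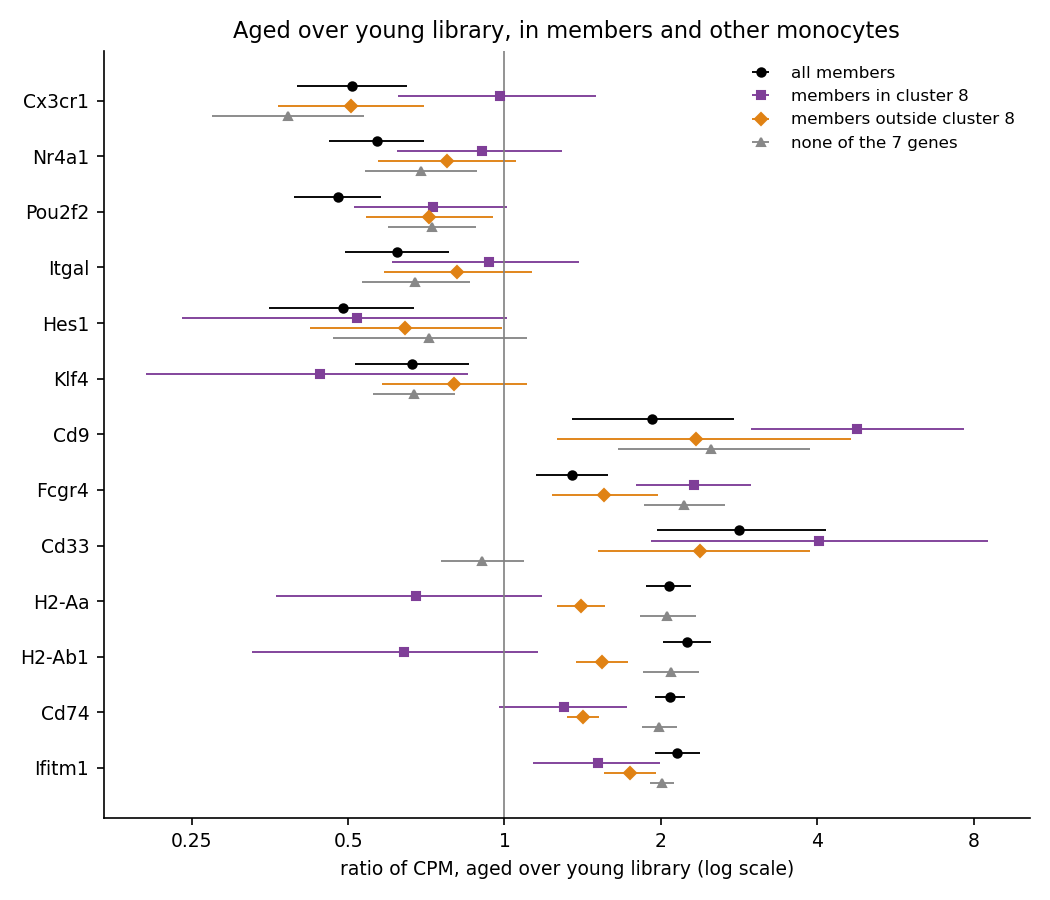
Ratio of CPM in the aged over the young library (horizontal axis, log scale) for 13 genes, in all members, in members inside and outside cluster 8 and in monocytes with none of the 7 genes, with exact 95% intervals. Cx3cr1 lies at 0.510 in all members and at 0.982 inside cluster 8, while Cd33 is above 1 in every set of members and at 0.906 in monocytes with none of the 7 genes.

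MHC class II genes were higher in aged members in 4 of 7 measured, with a median log2 ratio of 1.05 in members and 0.99 in cells with none of the genes, and S100 and antimicrobial genes in 5 of 14 (S100a8, S100a9, S100a10, S100a11 and Lcn2). S100a8 had 14211 CPM in aged and 8183 CPM in young members, a ratio of 1.74 (1.68 to 1.79), against 1.47 in cells with none of the genes. Other neutrophil markers differed in direction: Ly6g had 24 UMIs in aged and 5 UMIs in young members, while Retnlg had a ratio of 1.11 (1.03 to 1.19), Mmp9 1.21 (0.719 to 2.05) and Csf3r 0.67 (0.480 to 0.930). Among receptors for chemoattractants, Ccr1, C5ar1 and Ltb4r1 were higher and Cxcr4 and Gpr35 lower of 7 measured. Glycolysis genes were higher in 3 of 13 (Pgk1, Ldha and Hif1a) and lower in 1 (Hk2). Interferon-stimulated genes were higher in 2 of 10, complement and uptake genes in 3 of 11 (C1qa, C1qc and Cfp), and no gene of the Fc receptor, NADPH oxidase or AP-1 lists was past 1.5-fold. Ribosomal protein genes and their copies, which the ranking left out, were at least 1.5-fold lower in 17 of 99. Over all genes measured, 6.31% were at least 1.5-fold higher and 8.41% lower in aged members.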

How the data were processed

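Values were raw UMI counts per gene and cell, with a library and a population label per cell, as the authors deposited them in 1 table of 11691 genes. Cell Ranger 2.1.1 and build mm10 are named in the processing notes of the submitters. The aged library held 3944 cells with 13752454 UMIs and the young library 1849 cells with 6440664 UMIs. How the authors filtered cells and genes and labelled populations was not given in the sources used here. Xist, immunoglobulin and T cell receptor genes and some other genes are not reported here.

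Doublets were scored per library with scrublet in scanpy 1.11.5. Its automatic threshold called 0 aged and 4 young cells, so the highest scores were removed at a rate of 8 per 1000 cells for each 1000 cells, 124 aged and 27 young cells, of which 61 and 12 were monocytes. UMIs were summed over the cells of each class and library and divided by their total to give CPM. Ratios have exact conditional binomial intervals, shares Clopper-Pearson intervals and sums Poisson intervals (scipy 1.17.1). A count of 0 was set at 3 UMIs for a bound. With 1 library per age no test was made. Members and gene lists were chosen with earlier results of these data known.

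A gene was called between classes at 2-fold in both libraries and between ages at 1.5-fold, with at least 50 UMIs. Named were the 15 highest and 15 lowest genes between classes and the 10 highest and 10 lowest between ages, ranked by the interval bound nearest to 1, plus markers and up to 4 genes of each list. Choosing, ribosomal, mitochondrial, globin, sex-linked and receptor genes, pseudogenes and unnamed models stayed out of the ranking. Where a list had more than 4 genes past the fold, the others are named for completeness, after their values were seen. Clusters were made with the Leiden method at resolution 1 from 2000 variable genes, 30 principal components and 15 neighbours. The ratio and call code was tested on simulated data. Alternatives numbered 10 planned and 2 added after the values were seen. TMM factors came from edgeR 4.0.16. Gene positions are from GENCODE M21.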

Additional observations from a re-analysis of the deposited data

How the results depend on the processing

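No paired analysis was possible because each age had 1 library. In every alternative that changed the cells, the share of members among monocytes was lower in the aged than in the young library. It was 2.36% and 5.19% at 1000 UMIs per cell, 5.58% and 11.9% with 3 or more genes, 2.58% and 8.52% with 4 or more, and 3% and 10% for members in cluster 8, these last 2 chosen after seeing the data. Genes higher and lower in members were 157 and 42, but 94 and 75 at 1000 UMIs, 289 and 117 with 4 or more genes, 308 and 111 in cluster 8, 254 and 86 with a minimum of 20 UMIs, and 42 and 17 with 200. Those lower were 93 with 3 or more genes and 71 when the CPM of single cells was averaged. Genes higher and lower in aged members were 216 and 288, but 7 and 11 at 1000 UMIs, 129 and 124 with 4 or more genes, 106 and 171 in cluster 8, 593 and 754 with 20 UMIs, and 47 and 50 with 200. Those lower were 166 with 3 or more genes.

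Of 839 values of named genes under the alternatives, 725 stayed within their interval, 104 moved beyond it with the same direction and 10 changed direction. Minimums of 20 and 200 UMIs change which genes are measured and not their ratios. Their 80 of 80 and 49 of 49 within were fixed in advance. At 1000 UMIs 3 of 22 stayed within, 13 moved and 6 changed direction. In cluster 8 these were 30, 31 and 4 of 65, and with 4 or more genes 41, 29 and 0 of 70. At 1000 UMIs, H2-Aa in members over the other cells had log2 ratios of -0.88 (aged) and -2.83 (young) and H2-Eb1 of -0.14 and -0.45, while Hmgn2 and Glipr2 had 0.0138 and 0.36 in the young library. Inside cluster 8, H2-Aa and H2-Eb1 had -1.27 and -0.68 in the aged library, and H2-Ab1 and H2-Aa, aged over young, -0.64 and -0.56. The cause was not tested, and at 1000 UMIs the members were 22 aged and 28 young cells.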
